A study of Mus musculus with 17 samples.

Results

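The genes described here build the nicotinic acetylcholine receptor of skeletal muscle and cluster it at the synapse. The 10 symbols listed were Chrna1, Chrnb1, Chrnd, Chrng, Chrne, Musk, Rapsn, Dok7, Lrp4 and Agrn, and 9 of them were found by symbol among the 15062 genes of the deposited count table. Chrne, the epsilon subunit of the adult receptor, was not analysed here. The list was selected on earlier results of these libraries, among them a low level of Chrnd in SRF against pMSCV, so calls of its members are a description and no independent evidence.

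RNA was sequenced from C2C12, an established mouse myoblast line. All lines were grown in medium with fetal bovine serum, and the labels' protocols name no step of differentiation. The groups were lines expressing pMSCV (a retroviral expression vector, the control), SRF (serum response factor, which binds DNA at CArG boxes), or a fusion named for SRF and a partner. The partners were FOXO1 (a forkhead transcription factor), ICA1L (a relative of islet cell autoantigen ICA1), RELA (a subunit of NF-kappaB) and PDGFRB (a receptor tyrosine kinase). There were 3 libraries per group and 2 for SRF-PDGFRB, 17 in all. The labels name neither the species of the introduced sequences nor how many clones a line came from, and they do not say whether libraries came from separate cultures, so p-values measure only the spread between these libraries, which may be technical.

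In muscle, the acetylcholine receptor is a ring of 5 subunits around a cation channel. Embryonic and denervated muscle use alpha, beta, delta and gamma subunits, and in innervated adult muscle the epsilon subunit takes the place of gamma. Agrin binds LRP4 on the muscle cell, LRP4 activates the kinase MuSK with the adaptor DOK7, and rapsyn then anchors the receptors in clusters. Transcription of the subunit genes begins as myoblasts commit to fusion, and myogenic factors of the MyoD family are known to act on these genes through E-boxes, the sequence CANNTG.

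The promoters of the 4 measured members with the most E-boxes among those searched are shown, to let the letters be read beside the levels. The sequences are RefSeq's (GRCm38.p6), each from 180 to 11 bases before the annotated start, where the start base counts as 0, read 5′ to 3′ on the gene's strand. Capitals mark E-boxes.
Chrna1 promoter (chr2:73580349-73580518, minus strand): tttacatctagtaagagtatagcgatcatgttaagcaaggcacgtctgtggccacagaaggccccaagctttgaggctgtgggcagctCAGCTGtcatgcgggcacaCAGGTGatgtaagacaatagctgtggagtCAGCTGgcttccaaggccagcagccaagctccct
Chrnb1 promoter (chr11:69795948-69796117, minus strand): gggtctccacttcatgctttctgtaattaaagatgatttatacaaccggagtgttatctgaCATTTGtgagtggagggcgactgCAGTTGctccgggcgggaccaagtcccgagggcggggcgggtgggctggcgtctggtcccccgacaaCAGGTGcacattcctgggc
Chrng promoter (chr1:87205631-87205800, plus strand): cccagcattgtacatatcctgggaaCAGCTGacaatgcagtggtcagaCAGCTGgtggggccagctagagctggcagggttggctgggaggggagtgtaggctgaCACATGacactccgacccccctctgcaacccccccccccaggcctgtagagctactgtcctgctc
Musk promoter (chr4:58285782-58285951, plus strand): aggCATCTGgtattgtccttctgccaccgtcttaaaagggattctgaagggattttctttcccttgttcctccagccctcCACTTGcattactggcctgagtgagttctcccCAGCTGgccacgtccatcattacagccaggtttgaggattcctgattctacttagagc
Each of these 4 promoters held 3 E-boxes within 250 bases before to 50 after the start. Among 32851 promoter windows of that length, 72.3% held at least 1 E-box (both strands searched) and 17.6% held 3 or more. Chrna1 had CAGCTG at -92 and -44 and CAGGTG at -73, and Chrng had CAGCTG at -155 and -132. Dok7 had 1 E-box before its first start and 0 at its second, and Agrn had 0 at its first and 1 at its second. Neither the CArG box, the motif that SRF binds, nor the N-box CCGGAA, a motif known from synapse-specific transcription, was found in the windows of these 6 genes. The window of Chrne, whose level was not analysed, held 1 N-box at -76 and 1 E-box. The CArG box occurs in 1.63% and the N-box in 14.9% of all windows. A match is a description of letters and not of binding. The RefSeq start of Chrng lies inside the GENCODE span of the gene. No window was used for Chrnd, Rapsn and Lrp4.

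**Figure D1:**
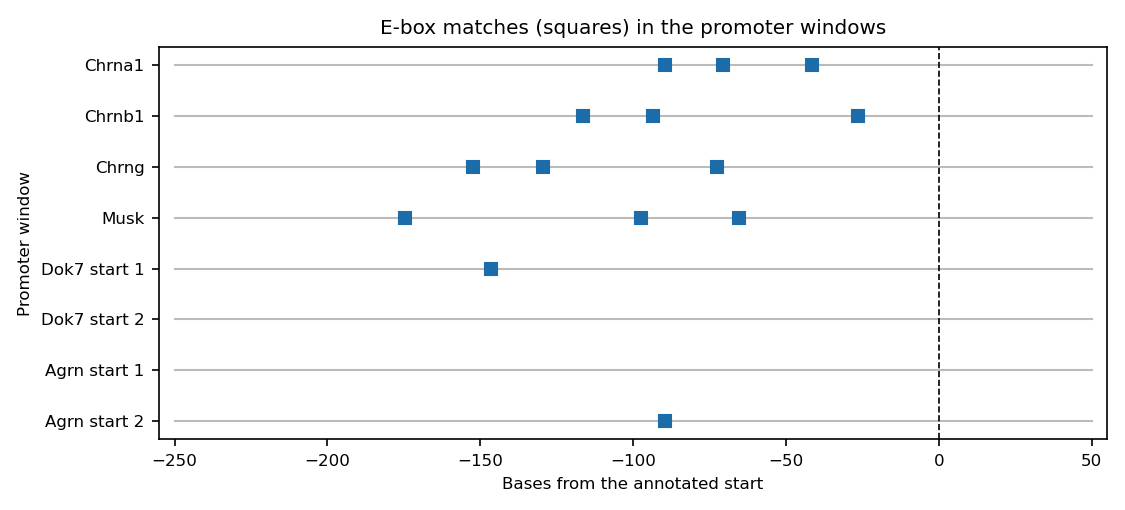
Position of E-boxes (CANNTG, squares) in the RefSeq promoter windows of 6 members, in bases from the annotated start (dashed line), with a row for each start. Chrna1, Chrnb1, Chrng and Musk hold 3 each, and the starts of Dok7 and Agrn hold 0 or 1.

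In the genome, Chrnd (chr1:87190607-87200070) and Chrng (chr1:87204657-87212694) lie on the plus strand with 4587 bases between them (GRCm38, GENCODE M21). Chrna1 lies at chr2:73563215-73580338 (minus strand), Chrnb1 at chr11:69784036-69795943 (minus), and Musk at chr4:58285960-58374303 (plus). Rapsn is at chr2:91035620-91045729 (plus), Lrp4 at chr2:91457511-91513779 (plus), Dok7 at chr5:35056766-35087839 (plus) and Agrn at chr4:156165290-156197488 (minus). Rapsn is the only member that overlaps another annotated gene, Gm13778 on the opposite strand, over 1638 bases. Whether counting used the strand is not given in the sources used here, so reads of these overlapping genes may not be told apart.

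Library totals ran from 20901442 to 23543734 counts, and values below are CPM, read counts scaled to a common library size by the trimmed mean of M values. Srf lay between 678 and 1673 CPM in the SRF libraries and between 66.6 and 93.8 CPM in pMSCV, and in the fusion lines between 70.5 and 279 CPM, which does not check the fusion labels. All 8 myoblast markers listed were found. Their summed level was 1583 to 1843 CPM in pMSCV, 836 to 1398 in SRF, 373 to 479 in SRF-FOXO1, 485 to 865 in SRF-RELA and 520 to 1180 in SRF-ICA1L. The SRF-PDGFRB libraries stood apart from each other, with summed myoblast markers of 422 CPM in replicate 1 and 2151 CPM in replicate 2. The 10 differentiated muscle markers found of 12 summed to 11.3 and 758 CPM in those libraries, against 177 to 358 CPM in pMSCV. They summed to 41.0 to 128 CPM in SRF, 43.4 to 77.7 in SRF-FOXO1, 65.6 to 117 in SRF-ICA1L and 39.7 to 352 in SRF-RELA, and only the last of these overlapped pMSCV. Of markers of other cells at a synapse, 0 of 6 for motor neurons and 3 of 6 for Schwann cells were analysed, and the latter summed to 1.40 to 7.71 CPM.

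Per kilobase of exon, the members differed widely in level. The median over 17 libraries was 23.9 CPM per kb for Chrna1, 15.8 for Chrnb1, 15.6 for Rapsn and 5.81 for Chrnd. It was 4.59 for Lrp4, 4.06 for Agrn, 2.24 for Musk, 0.845 for Dok7 and 0.670 for Chrng. By this median, the alpha and beta subunits and rapsyn were the most abundant, and the gamma subunit the least. The group means did not all keep this order. Chrng lay above Dok7 in pMSCV (3.38 against 2.18 CPM per kb) and in each fusion line, and below it in SRF (0.667 against 1.16). The range over libraries did not follow the order of the medians. The highest library exceeded the lowest by 77.4-fold for Chrnd, 70.5-fold for Dok7, 58.3-fold for Chrng, 26.3-fold for Chrna1, 23.2-fold for Musk and 12.8-fold for Chrnb1, but by 7.83-fold for Lrp4, 4.11-fold for Rapsn and 2.09-fold for Agrn.

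**Figure D2:**
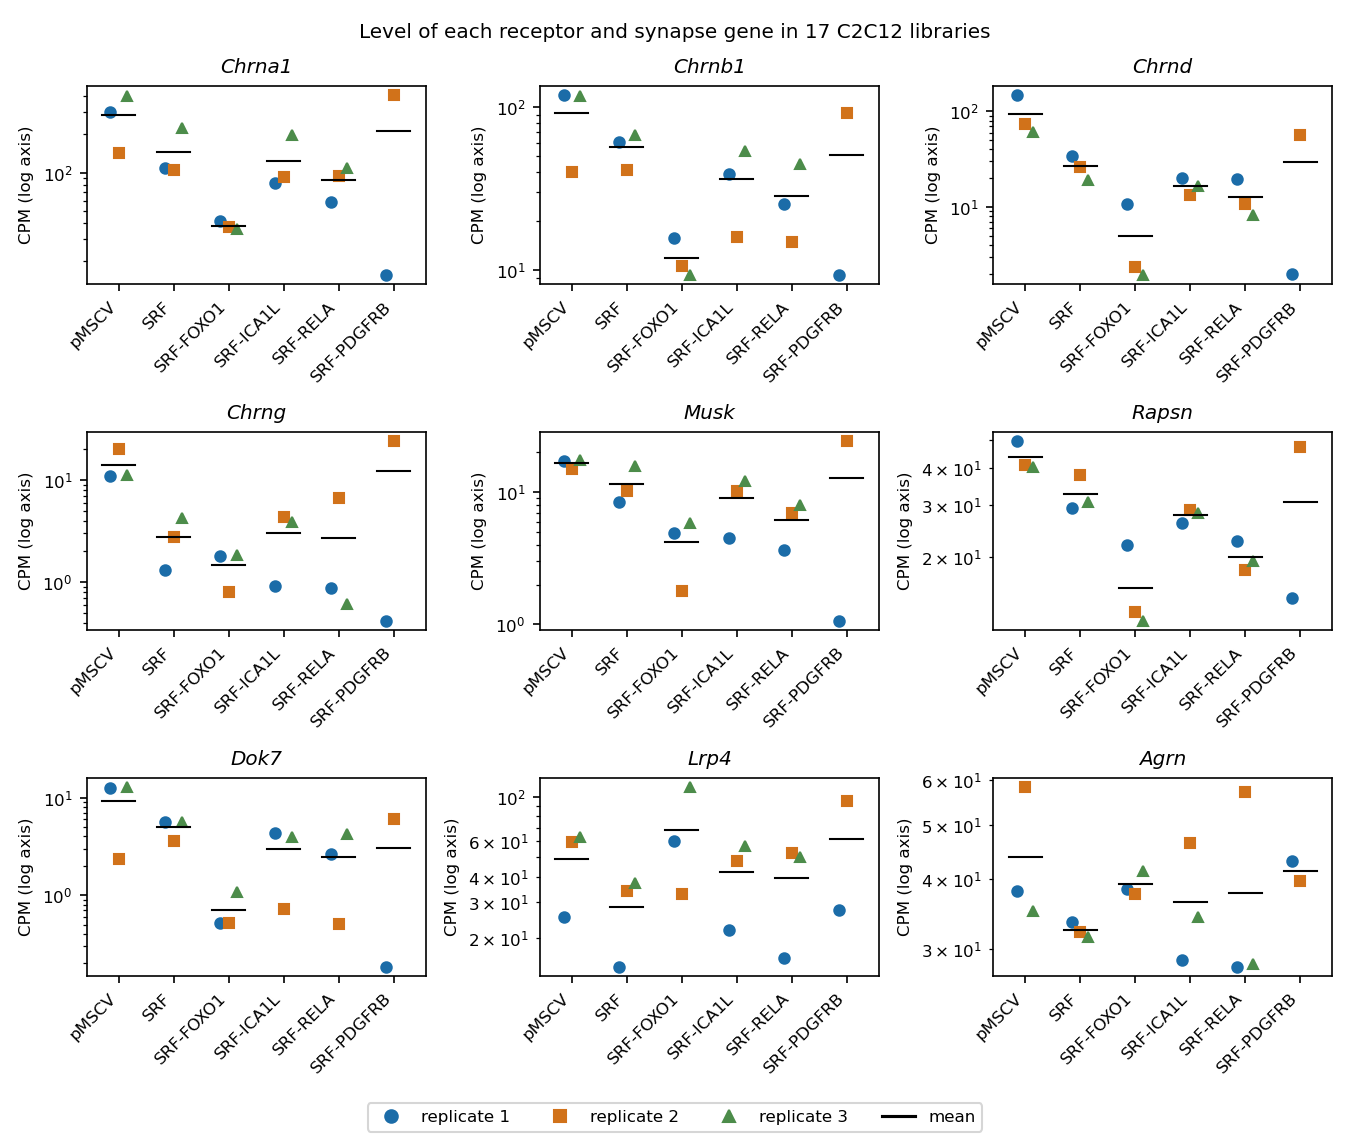
Level of each of the 9 members (CPM, log axis) in the 17 libraries by group, with symbols for the replicate number and a bar at the group mean. Chrnd lies between 60.9 and 148 CPM in pMSCV and between 1.92 and 10.7 CPM in SRF-FOXO1, and the SRF-PDGFRB libraries lie far apart for all members but Agrn.

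Chrnd, the delta subunit, was lower than in every pMSCV library in all 14 libraries that express SRF or a fusion. All 14 are set against the same pMSCV libraries, and the share of all genes with this pattern was not computed. The low level in SRF is also a value the list was selected on. Chrnd stood at 148, 74.1 and 60.9 CPM in pMSCV (replicates 1, 2 and 3) and at 34.4, 26.0 and 19.1 CPM in SRF. It was at 10.7, 2.34 and 1.92 CPM in SRF-FOXO1, 19.4, 10.6 and 8.16 CPM in SRF-RELA and 20.3, 13.2 and 16.4 CPM in SRF-ICA1L. No library of these 4 groups reached the pMSCV range, and the ranges of SRF, SRF-ICA1L and SRF-RELA overlapped. In SRF-PDGFRB the levels were 1.97 and 56.5 CPM, the latter just under the lowest pMSCV library. By group mean the order was pMSCV (94.5 ± 47.2 CPM, SD, n = 3), SRF-PDGFRB (29.2 ± 38.5, n = 2), SRF (26.5 ± 7.66, n = 3), SRF-ICA1L (16.6 ± 3.53, n = 3), SRF-RELA (12.7 ± 5.93, n = 3) and SRF-FOXO1 (4.98 ± 4.94, n = 3). The ranges of SRF-ICA1L and SRF-RELA, neighbours in this order, overlapped. Chrnd was lower in SRF-RELA than in SRF-ICA1L in each same-numbered pair, and this difference was not tested.

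Chrna1, the alpha subunit that carries the agonist site, was at 302, 143 and 402 CPM in pMSCV. It was at 108, 105 and 223 CPM in SRF, 58.8, 94.5 and 109.5 CPM in SRF-RELA and 83.3, 92.2 and 198 CPM in SRF-ICA1L. SRF and SRF-ICA1L overlapped pMSCV through replicate 3, while all SRF-RELA libraries lay below it. The lowest group was SRF-FOXO1, at 41.6, 37.1 and 36.2 CPM. SRF-PDGFRB held both extremes of the series, 15.5 and 408 CPM.

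Chrnb1, the beta subunit, was at 119, 40.1 and 117 CPM in pMSCV, where replicate 2 lay just below the SRF libraries (61.3, 41.4 and 67.2 CPM). SRF-RELA had 25.3, 14.9 and 44.9 CPM and SRF-ICA1L 38.9, 16.0 and 54.0 CPM. In both lines, as in pMSCV and SRF, replicate 2 was the lowest. SRF-FOXO1, at 15.7, 10.6 and 9.36 CPM, lay below every pMSCV and SRF library, and SRF-PDGFRB stood at 9.28 and 92.6 CPM.

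Chrng, the gamma subunit of the embryonic receptor, was at 10.8, 20.1 and 11.3 CPM in pMSCV and 1.32, 2.79 and 4.23 CPM in SRF. It was at 0.915, 4.29 and 3.85 CPM in SRF-ICA1L, 0.881, 6.66 and 0.606 CPM in the line with SRF-RELA and 1.79, 0.797 and 1.83 CPM in SRF-FOXO1. The SRF and fusion lines overlapped each other, and all 12 of these libraries lay below pMSCV. SRF-PDGFRB had 0.413 and 24.1 CPM, the lowest and the highest values of the gene.

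Musk, the receptor tyrosine kinase that organises the postsynapse, was at 17.2, 14.9 and 17.4 CPM in pMSCV. It was at 8.45, 10.2 and 15.8 CPM in SRF, 4.53, 10.2 and 12.2 CPM in SRF-ICA1L, 3.62, 6.94 and 8.02 CPM in the line with SRF-RELA and 4.93, 1.78 and 5.84 CPM in SRF-FOXO1. Only SRF overlapped pMSCV among these 4 lines. SRF-PDGFRB stood at 1.06 and 24.5 CPM.

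Rapsn, which encodes the receptor-anchoring protein rapsyn, had narrow groups outside SRF-PDGFRB. It was at 49.7, 41.0 and 40.6 CPM in pMSCV, 29.4, 38.0 and 30.6 CPM in SRF, 26.1, 28.8 and 28.2 CPM in SRF-ICA1L, 22.6, 18.1 and 19.3 CPM in the line with SRF-RELA and 22.0, 13.0 and 12.1 CPM in SRF-FOXO1. Adjacent groups in that sequence did not overlap, except SRF-RELA and SRF-FOXO1. In SRF-PDGFRB it was at 14.5 and 47.2 CPM.

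Dok7, the adaptor that MuSK needs for its activity, was at 12.6, 2.34 and 12.9 CPM in pMSCV, with replicate 2 far below the others. It was at 5.63, 3.61 and 5.58 CPM in SRF, 4.29, 0.714 and 3.98 CPM in SRF-ICA1L, 2.64, 0.502 and 4.20 CPM in the line with SRF-RELA and 0.523, 0.516 and 1.07 CPM in SRF-FOXO1. Replicate 2 was the lowest library in each of these groups. SRF-PDGFRB was at 0.184 CPM in replicate 1, the lowest value, and 5.96 CPM in replicate 2.

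Lrp4 and Agrn did not share this order. Lrp4, the agrin receptor, was at 25.3, 59.6 and 63.1 CPM in pMSCV, 14.3, 33.9 and 37.2 CPM in SRF, 15.8, 52.3 and 50.5 CPM in SRF-RELA and 21.7, 48.2 and 56.9 CPM in SRF-ICA1L, with replicate 1 the lowest each time. SRF-FOXO1 reached the highest level (60.1, 33.1 and 112 CPM) and overlapped pMSCV, and SRF-PDGFRB had 27.6 and 95.7 CPM. Agrn, the secreted organiser of the synapse, lay between 27.9 and 58.4 CPM in all 17 libraries. Its levels were 38.0, 58.4 and 35.1 CPM in pMSCV and 33.5, 32.2 and 31.6 CPM in SRF. Counts per gene do not separate the agrin forms made by nerve and by muscle.

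Against pMSCV, the 4 subunits had lower mean levels in the lines with SRF or a fusion. For Chrna1, Chrnb1 and Chrng the SRF-PDGFRB mean was lower through replicate 1 alone, as replicate 2 exceeded the same-numbered pMSCV library. No member passed the threshold when replicate number was not used. In the fit of all 17 libraries (edgeR's quasi-likelihood test, adjusted p under 0.05 over all genes), 0 of 9 members were called in SRF, where 0.00664% of all genes were called, in SRF-FOXO1 (0.71%), SRF-ICA1L (0%), SRF-RELA (0%) and SRF-PDGFRB (0.0199%). Against SRF, 0 of 9 were called in SRF-FOXO1 (0.00664%), SRF-ICA1L (0%), SRF-RELA (0.00664%) and SRF-PDGFRB (0.0531%). The median log2 fold change of the 4 subunits against pMSCV was -1.40 in SRF, -2.03 in SRF-RELA, -1.78 in SRF-ICA1L, -3.10 in SRF-FOXO1 and -0.63 in SRF-PDGFRB, with all 4 below 0 in each. The 10 differentiated muscle markers had medians of -2.03, -2.05, -1.89, -2.46 and 0.30 in the same order, and their part was not tested. The median over all genes lay between -0.016 and 0.0084. These comparisons share the pMSCV libraries. In bulk RNA, fewer cells of a type and less RNA per cell cannot be told apart.

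SRF-FOXO1 had the largest differences. In edgeR's quasi-likelihood fit, with Benjamini-Hochberg adjusted p-values throughout, Chrnd was at a log2 fold change of -4.24 (SE 0.95, adjusted p 0.0508) and Rapsn at -1.48 (SE 0.33, adjusted p 0.0514). Chrnb1 stood at -2.95 (SE 0.72, adjusted p 0.0563), Chrna1 at -2.88 (SE 0.80, adjusted p 0.0755) and Dok7 at -3.71 (SE 1.09, adjusted p 0.0853), all by edgeR with the same adjustment. Chrng (-3.25, SE 1.15) and Musk (-1.98, SE 0.77) were farther from the threshold, and Lrp4 (0.47, SE 0.61) and Agrn (-0.16, SE 0.27) were smaller than their SE. All 3 SRF-FOXO1 libraries lay below all 3 pMSCV libraries for 7 of 9 members, all but Lrp4 and Agrn, where 11.6% of all genes showed this. DESeq2 called 6 of these 7, all but Musk, where it called 9.07% of all genes. Without pMSCV replicate 2, edgeR called Chrnb1 and Chrnd, where it called 355 of 15062 genes. Without pMSCV replicate 1 or 3, or without SRF-FOXO1 replicate 1 or 3, it called 0 of all genes.

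Replicate numbers paired SRF-RELA, SRF-ICA1L, SRF and pMSCV, whose libraries deviated from their group means together, so these 12 libraries were also fitted with the replicate number as a block. With the block, SRF differed from pMSCV in 1 member, Chrnd, which fell by 1.76 in log2 terms (SE 0.19) and was lower in 3 of 3 same-numbered pairs, with a Benjamini-Hochberg adjusted p of 0.0125 in edgeR's quasi-likelihood test. In that comparison 0.0137% of all genes were called. This is a value the list was selected on. With single SRF or pMSCV libraries left out, the log2 fold change of Chrnd stayed between -1.91 and -1.62, but the call was lost in 3 of 6 fits. Without SRF replicate 1, SRF replicate 3 or pMSCV replicate 1, the block called 0 members, and without pMSCV replicate 3 it called Chrnd and Lrp4. Lrp4 was at -0.80 (SE 0.12, adjusted p 0.0940, edgeR with the block), with same-numbered differences of -0.82, -0.81 and -0.76. All SRF libraries lay below all pMSCV libraries for Chrnd, Chrng, Rapsn and Agrn, 4 of 9 members, against 5.15% of all genes.

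SRF-ICA1L differed from pMSCV in 4 of 9 members with the block, where 2.99% of all genes were called. The log2 fold change of Chrnd was -2.40 (SE 0.19, adjusted p 0.000848) and that of Chrnb1 -1.35 (SE 0.21, adjusted p 0.0133), in edgeR's blocked quasi-likelihood fit. Chrna1 fell by 1.21 (SE 0.27, adjusted p 0.0434) and Rapsn was at -0.65 (SE 0.14, adjusted p 0.0397) in the same edgeR fit. Each of the 9 members was lower in 3 of 3 same-numbered pairs, and this also held in SRF-RELA against pMSCV. Some of these differences were small, such as that of Agrn in SRF-ICA1L replicate 3 (-0.039). The share of all genes lower in every pair was not computed. Chrng (-2.39), Dok7 (-1.61) and Musk (-0.99) had adjusted p-values of 0.0676, 0.0596 and 0.0704 in that edgeR fit. The block called 1 member, Chrnd, without SRF-ICA1L replicate 1, SRF-ICA1L replicate 2 or pMSCV replicate 1, and Chrnb1 and Chrnd without SRF-ICA1L replicate 3. Of these 6 fits, only that without pMSCV replicate 2 called Chrna1 and Rapsn. Without regard to pairing, 4 members (Chrnd, Chrng, Rapsn and Musk) were lower in every SRF-ICA1L library than in every pMSCV library, as were 5.54% of all genes.

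SRF-RELA differed in 7 of 9 members with the block, all but Lrp4 and Agrn, where 6.48% of all genes were called. Chrnd fell by 2.86 in log2 terms (SE 0.19), with an adjusted p of 0.000347 in edgeR's blocked quasi-likelihood fit. Its same-numbered differences were -2.93, -2.79 and -2.89. In that edgeR fit the other subunits also fell, Chrnb1 at -1.67 (SE 0.22, adjusted p 0.00340), Chrna1 at -1.61 (SE 0.27, adjusted p 0.00948) and Chrng at -2.73 (SE 0.62, adjusted p 0.0296). Of the assembly genes, Rapsn (-1.11, SE 0.14, adjusted p 0.00324), Musk (-1.50, SE 0.26, adjusted p 0.0101) and Dok7 (-1.92, SE 0.41, adjusted p 0.0215) fell in the same edgeR fit. Lrp4 was at -0.37 (SE 0.12) and Agrn at -0.23 (SE 0.18). Without SRF-RELA replicate 1 the block called 3 members, Chrnb1, Chrnd and Rapsn, and without any other library of the 2 groups 5 or 6. Chrng was not called without SRF-RELA replicate 1 or 3 or pMSCV replicate 1 or 2, nor Dok7 without SRF-RELA replicate 1 or 2 or pMSCV replicate 1 or 3. Chrnd, Chrng, Chrna1, Rapsn and Musk were lower in every SRF-RELA library than in every pMSCV library, as were 5.91% of all genes.

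The fusion lines were also compared with the SRF line. Since Srf was at 678 to 1673 CPM in SRF and at 70.5 to 279 CPM in the fusion lines, the partner and the level of Srf cannot be told apart in it. SRF-RELA differed from SRF in 1 member with the block, Chrnd, which fell by 1.10 in log2 terms (SE 0.19, Benjamini-Hochberg adjusted p 0.0360 in edgeR's quasi-likelihood test), where 0.656% of all genes were called. In the 6 fits that each left out 1 SRF or SRF-RELA library it lay between -1.21 and -0.97 and was called in 0. Chrnb1 (-1.11, SE 0.22) and Rapsn (-0.70, SE 0.14) had adjusted p-values of 0.0524 and 0.0572 in that edgeR fit. SRF-ICA1L differed from SRF in 0 of 9 members with the block, against 0.0956% of all genes, and Chrnd stood at -0.63 (SE 0.19) and Lrp4 at 0.58 (SE 0.12).

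SRF-FOXO1 paired by replicate number with SRF while its numbers did not pair with those of SRF-RELA, pMSCV or SRF-ICA1L, so these 2 groups were fitted alone with the block. Chrnb1 fell at a log2 fold change of -2.23 (SE 0.22, adjusted p 0.0369) and Dok7 at -2.82 (SE 0.36, adjusted p 0.0456) in edgeR's quasi-likelihood test, 2 of 9 members against 1.57% of all genes. Both were lower in 3 of 3 same-numbered pairs, and this fit was not repeated without single libraries. Chrnd, Chrna1, Rapsn, Musk, Dok7 and Chrnb1 lay lower in every SRF-FOXO1 library than in every SRF library, 6 of 9 members against 18.3% of all genes. Agrn was higher in every SRF-FOXO1 library (38.4, 37.7 and 41.4 CPM) than in every SRF library, as were 2578 of 15062 genes. Its log2 fold change of 0.27 (SE 0.27) was not called. The SRF-PDGFRB libraries also lay above every SRF library for Agrn, as they did for 1958 of 15062 genes. Differences between the fusions were not tested.

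**Figure D3:**
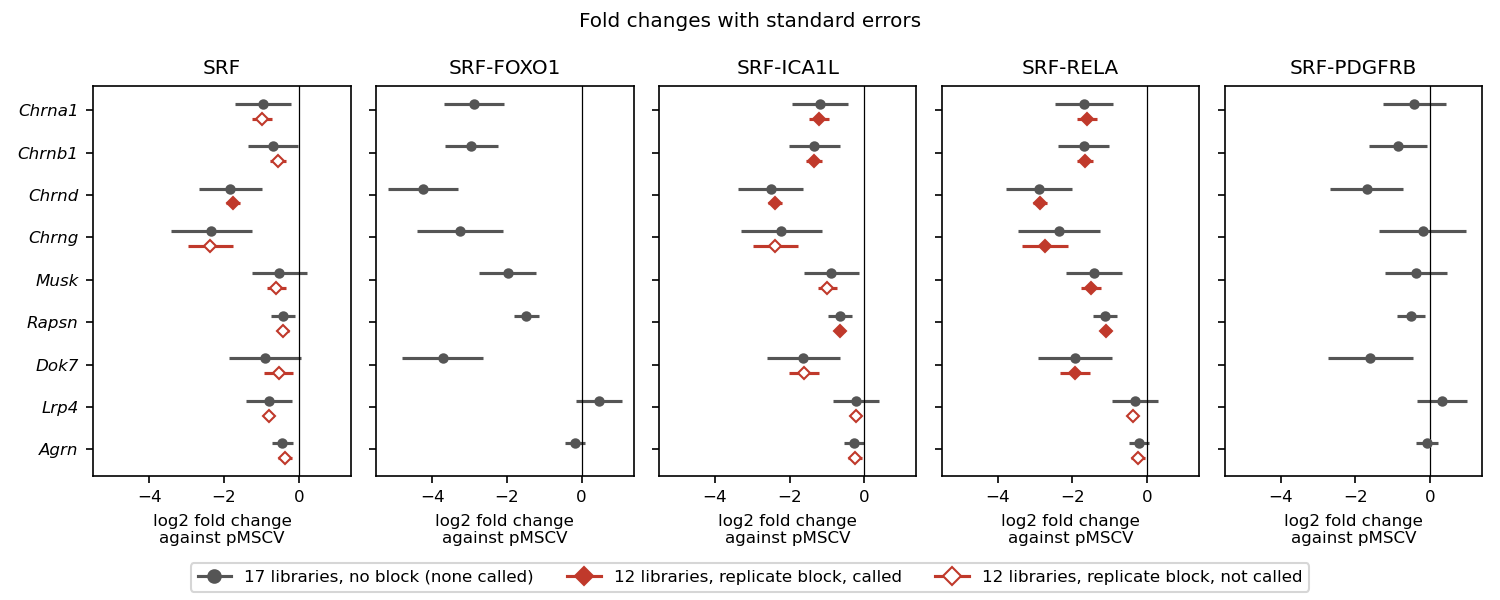
Log2 fold change against pMSCV of the 9 members (points, bars are ± 1 SE) in each line. Grey points are the fit of 17 libraries without a block, where 0 members were called, and red diamonds the fit of the 12 paired libraries with the block, filled where called: 1 in SRF, 4 in SRF-ICA1L and 7 in SRF-RELA.

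The SRF-PDGFRB libraries had values far apart for all members but Agrn. Against the same-numbered pMSCV library, replicate 1 was lower by log2 differences of -6.17 for Chrnd, -5.53 for Dok7, -4.43 for Chrng, -4.28 for Chrna1, -3.91 for Musk, -3.67 for Chrnb1 and -1.77 for Rapsn. In replicate 2 the differences were -0.39 for Chrnd and 1.32, 0.26, 1.51, 0.71, 1.21 and 0.20 for the others in that order. Replicate 1 was below every pMSCV library for these 7 members but not for Lrp4 or Agrn. Replicate 2 was in or near the pMSCV range, with Chrna1, Chrng, Musk and Lrp4 above it. Chrnd was the only member lower in both libraries than in all pMSCV libraries, as were 7.23% of all genes. Fitted without replicate 2, Chrna1 was at a log2 fold change of -4.19 (SE 0.79) in SRF-PDGFRB against pMSCV. That fit assumes that the lone library varies like the other groups, so no call is read from it. Fitted without replicate 1, the log2 fold change of Chrna1 was 0.52 (SE 0.58). Myod1 and Myog, myogenic transcription factors, split the same way, at 5.69 and 0.230 CPM in replicate 1 and 111.0 and 85.5 CPM in replicate 2.

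Within a library, the subunits did not keep 1 proportion. The count of Chrnd relative to Chrna1 was 0.491, 0.519 and 0.152 in pMSCV, 0.319, 0.248 and 0.0857 in SRF, 0.243, 0.143 and 0.0830 in SRF-ICA1L, 0.331, 0.113 and 0.0745 in the line with SRF-RELA and 0.257, 0.0631 and 0.0530 in SRF-FOXO1. It was 0.127 and 0.138 in SRF-PDGFRB, so that libraries with very different receptor levels had close ratios. Every library with SRF or a fusion lay below the pMSCV library of its number, and replicate 3 had the lowest ratio in each group of 3. Chrng relative to Chrna1, in percent, was 3.57, 14.1 and 2.80 in pMSCV and 1.22, 2.66 and 1.90 in SRF. In SRF-FOXO1 it was 4.30, 2.15 and 5.06, above the same-numbered pMSCV library in replicates 1 and 3 and below it in replicate 2. The numbers of SRF-FOXO1 did not pair with those of pMSCV. In every library of SRF, SRF-ICA1L, SRF-RELA and SRF-PDGFRB this percentage was below that of the same-numbered pMSCV library. These ratios are a description, since Chrnd was among the values the list was selected on.

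**Figure D4:**
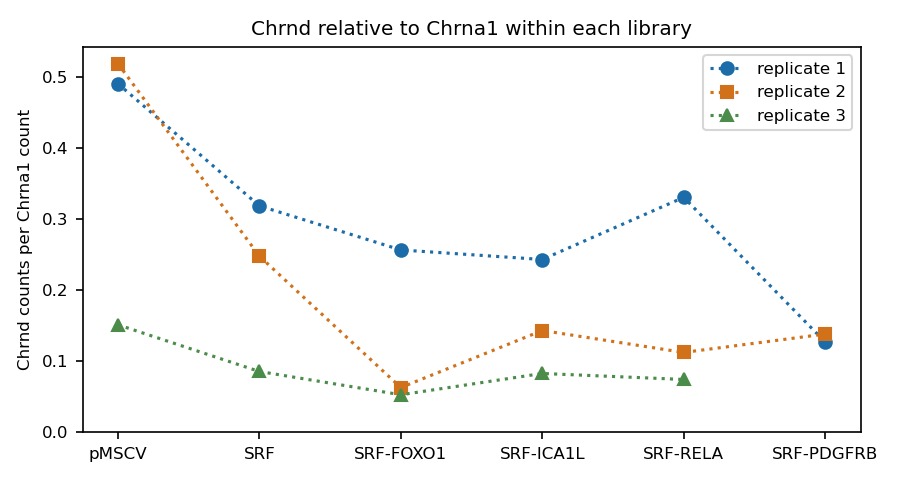
Chrnd counts divided by Chrna1 counts in each library by group, with a dotted line for each replicate number. The ratio falls from 0.491, 0.519 and 0.152 in pMSCV to lower values in every same-numbered library of the other lines.

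Over the 17 libraries, 6 members varied closely together, Chrng less so, and Lrp4 and Agrn did not follow the 6. Pearson's r of log2 CPM was 0.911 for Chrna1 with Chrnb1, 0.923 for Chrna1 with Musk, 0.954 for Chrnd with Rapsn and 0.950 for Chrnb1 with Dok7. The lowest r of Chrng with the 6 was 0.429, with Dok7, below its r with Lrp4 (0.487) and Agrn (0.489). Lrp4 and Agrn had r between -0.49 and 0.37 with the 6 and 0.44 with each other. The points share groups, replicate numbers and the split of SRF-PDGFRB, so r describes these libraries and has no test.

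The genes whose log2 CPM was most like the mean of the 4 subunits over 17 libraries were Peg3 (r 0.973), Zim1 (0.970) and Sema6a (0.962). Chrna1 was most like Cdh15, the muscle cadherin (0.975), and Vgll2, a cofactor of TEAD factors (0.972). Chrnd was most like Pdgfd, a PDGF ligand (0.975), and Usp29 (0.969). Chrng was most like Hjv, which encodes hemojuvelin (0.960), and the fast muscle genes Myl1 (0.950) and Tnnt3 (0.938), while Musk was most like Sulf1 (0.955) and Cacng1 (0.953), the latter a subunit of the muscle calcium channel. Lrp4 (Pon3, 0.901) and Agrn (Tcp11l2, 0.940) had different nearest genes. After each library's replicate mean was taken off in the 12 paired libraries, the nearest to the subunit mean were Spg7 (0.978), Itga7 (0.970), the laminin receptor of myoblasts, and Trim8 (0.969). The points share depth and groups, and r carries no test.

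The transcription factors known to act on the subunit genes gave 18 genes of 20 listed. In the fit without a block 0 were called in any comparison. With the block in the 12 libraries, SRF-ICA1L had 3 lower and 0 higher, and SRF-RELA 4 lower and 0 higher, against 2.99% and 6.48% of all genes. Their medians were -0.14 and -0.06. In edgeR's blocked quasi-likelihood fit, the log2 fold change of Myog was -2.44 in SRF-ICA1L (SE 0.46, adjusted p 0.0221) and -3.04 in SRF-RELA (SE 0.48, adjusted p 0.00687). Myod1 (-1.41 and -1.69) and Mef2c, a MADS-box partner of the MyoD family (-2.01 and -2.20), fell in both lines, and Myf5 in SRF-RELA (-1.48). Members of the list that oppose E-box factors, such as Id1, Id2 and Id3, were not called. Myod1 stood at 61.1, 44.9 and 107 CPM in pMSCV, 28.3, 25.1 and 73.0 CPM in SRF and 11.8, 6.66 and 10.4 CPM in SRF-FOXO1. The called factors fell with the receptor genes in SRF-ICA1L and SRF-RELA, but most listed factors were not called. Without a block, myoblast markers had median log2 fold changes against pMSCV from -2.64 (SRF-FOXO1) to -0.54 (SRF-PDGFRB). Those of differentiated muscle markers ran from -2.46 (SRF-FOXO1) to 0.30 (SRF-PDGFRB). In SRF-RELA against SRF the subunits were at -0.86. The myoblast markers were at -0.74 there (7 of 8 below 0) and the differentiated markers at 0.31 (4 of 10 below 0). The part of these factors and markers in the result was not tested.

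**Figure D5:**
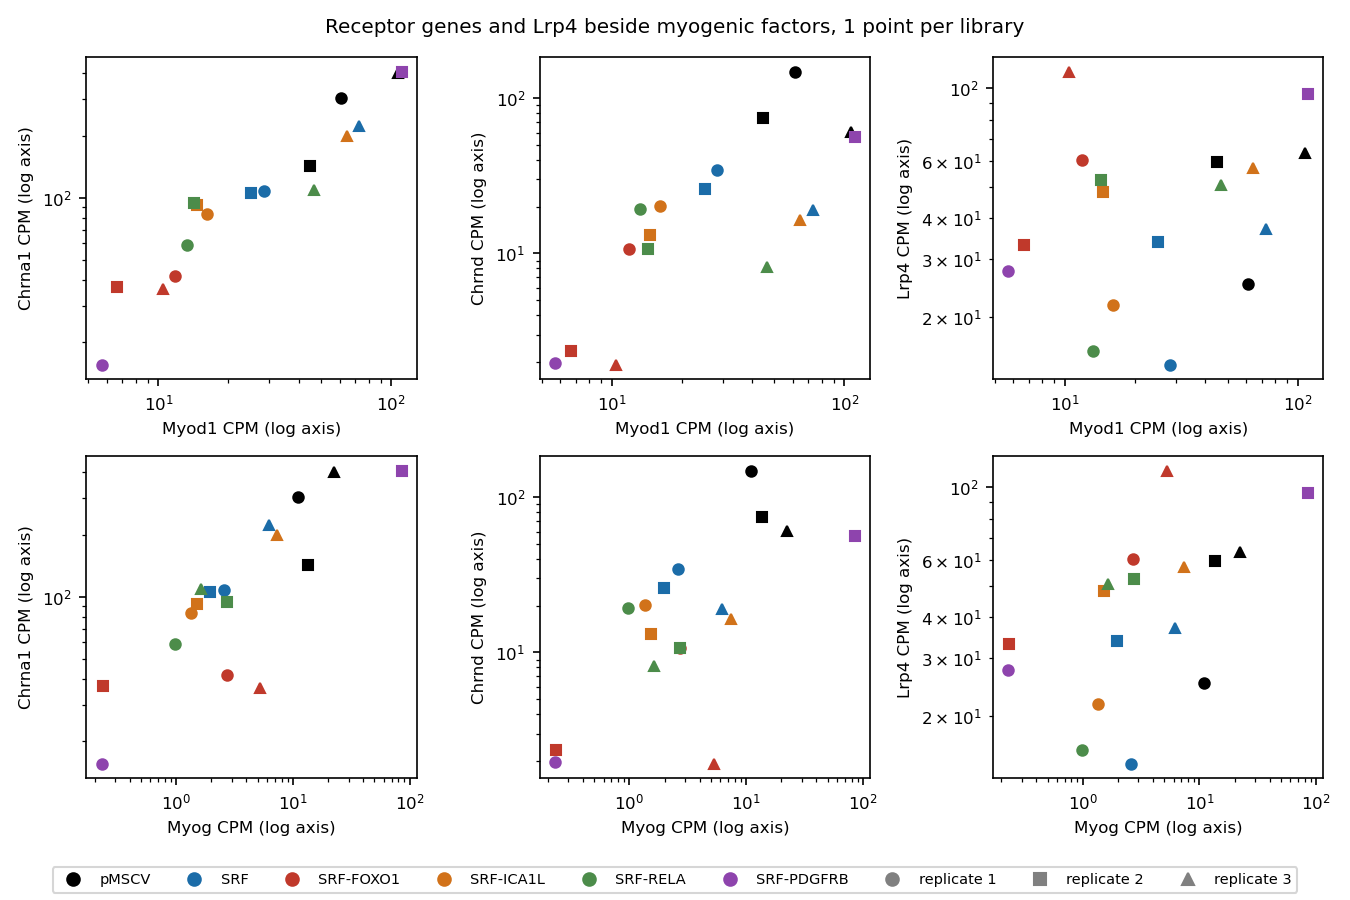
CPM of Chrna1, Chrnd and Lrp4 against Myod1 (upper row) and Myog (lower row), 1 point per library, both axes logarithmic. Chrna1 is lowest where Myod1 is 5.69 CPM and highest where it is 111.0 CPM (both SRF-PDGFRB), while Lrp4 reaches 112 CPM in SRF-FOXO1 replicate 3, where Myod1 is at 10.4 CPM.

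Other genes of the postsynapse had medians near that of all genes. Of 45 listed, 40 were found, and against pMSCV their median log2 fold change lay between -0.03 and 0.09 in the 5 lines. In SRF-FOXO1, 2 were called lower and 0 higher without a block, against 0.71% of all genes. They were Erbb3 (-3.86, SE 0.76, adjusted p 0.0383), a neuregulin receptor, and Fyn (-1.51, SE 0.32, adjusted p 0.0483), a kinase of the Src family, by edgeR's quasi-likelihood test after Benjamini-Hochberg adjustment. With the block, 39 were tested. Erbb3 (-1.98 and -2.19), Fyn (-0.77 and -0.97) and Src (-0.49 and -0.60) fell in both SRF-ICA1L and the SRF-RELA line, Nrg1, a ligand of the ErbB receptors, rose by 0.70 in SRF-RELA, and 0 were called in SRF. That is 3 of 39 in SRF-ICA1L, where 2.99% of all genes were called, and 4 of 39 in SRF-RELA, where 6.48% were. Of 11 other nicotinic subunits listed, Chrnb2 alone was analysed and was not called.

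Genes known to rise with the receptor in denervated muscle gave 10 of 11 listed. Their median log2 fold change against pMSCV lay between -0.80 (SRF-RELA) and -0.19 (SRF-PDGFRB), and 0 were called without a block. With the block, Myh3, the embryonic myosin heavy chain, fell in SRF-ICA1L (-2.67) and SRF-RELA (-3.11), and 0 were called in SRF. Fibroblast markers (4 found of 5) summed to 774 to 4628 CPM in pMSCV and 879 to 7049 CPM in SRF-FOXO1, and their part was not tested.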

How the data were processed

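RNA was measured in 17 libraries prepared with the TruSeq Stranded mRNA kit, per the labels' protocols. Raw counts per gene were deposited by the authors in 1 table, and every gene in it has at least 10 counts in at least 3 libraries. Per the submitters' processing notes, the tools were FastQC 0.11.8, Trimmomatic 0.39, HISAT2 and featureCounts of Subread 2.0.0, with build GRCm38. Strand setting and the treatment of multiply mapped reads are not given in the sources used here. Of 1531 genes without a symbol, 1519 received one by gene ID. Groups and replicate numbers came from the titles.

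The members and lists were chosen with earlier results of these data known. Counts were scaled by TMM and tested over 15062 genes in 1 fit of 17 libraries with a term for group (edgeR 4.0.16, limma 3.58.1, R 4.3.3, quasi-likelihood test, robust), and a gene was called at a Benjamini-Hochberg adjusted p under 0.05. edgeR's filter removed no gene. The biological coefficient of variation was 36.5%. SE is the size of the log2 fold change divided by the square root of F. Log2 CPM used a prior count of 2. Same-numbered libraries of SRF-RELA, SRF-ICA1L, SRF and pMSCV correlated in their deviations from group means (0.392 to 0.789, with 0.114 at most for different numbers), and those of SRF-FOXO1 and SRF did so at 0.220 to 0.330, so a replicate block was also fitted. The labels give only numbers, so this pairing is read from the data. Other settings were DESeq2 1.42.0, DESeq2 size factors, at least 50 counts in 3 libraries, 2 groups alone and leaving out each library. All members are named, and other genes were named as called members of a list or as the 3 with the highest r to a member. The scripts were tested on simulated data.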

Additional observations from a re-analysis of the deposited data

How the results depend on the processing

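Against pMSCV, the number of members called without a block (0 in each line) became 1 (SRF), 4 (SRF-ICA1L) and 7 (SRF-RELA) with the replicate block in 12 libraries. Of the 14639 genes in that blocked fit, 2, 437 and 949 were called in the same order. The genes called in all also differed between settings and are given in brackets. For SRF-FOXO1 the number of members was 1 with the 2 groups alone (32 of 14044 genes). It was 2 with at least 50 counts in 3 libraries (275 of 11948) and 6 with DESeq2 (1363 of 15034). With DESeq2 size factors in edgeR it was 2 (178 of 15062). The replicate block over 17 libraries, where numbers did not pair with pMSCV, gave 4 (1021 of 15062). Single libraries left out gave 0 to 2 (0 to 355 genes). With the 2 groups alone and the replicate block it was 2 for SRF-ICA1L (19 of 13958) and 5 for SRF-RELA (415 of 13903). DESeq2 gave 1 for SRF-RELA (105 of 14742). For SRF-PDGFRB with single libraries left out no count is read, since leaving out 1 of its libraries leaves only 1. Against SRF, SRF-FOXO1 gave 3 members with the 2 groups alone, Chrna1, Chrnb1 and Dok7 (528 of 13949 genes). It gave 2 with the replicate block added (219 of 13949) and 1 with DESeq2 (597 of 13868). SRF-RELA gave 1 against SRF with the block in 12 libraries (96 of 14639). Under the other settings the counts of members stayed 0.

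Settings added after the data had been seen were DESeq2 with the replicate block and the block without single libraries. Against pMSCV, DESeq2 with the block called 4 members in SRF, where it called 296 of 12726 genes. It called 7 in SRF-ICA1L, where it called 1096 of 14770 genes, and 7 in SRF-RELA. Against SRF it called 2 members in SRF-ICA1L (185 of 13602 genes) and 6 in SRF-RELA. With single libraries left out, the blocked counts were 0 to 2 (SRF), 1 to 5 (SRF-ICA1L) and 3 to 6 (SRF-RELA) against pMSCV. They were 0 to 0 for SRF-RELA against SRF. The leave-out fits against pMSCV called 0 to 89 of all genes for SRF and 24 to 543 for SRF-ICA1L. Genes called in all for SRF-RELA under these added settings are not given here.

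Signs changed only for small or split differences. For SRF-ICA1L against SRF, Chrng was at 0.12 and at -0.011 and -0.046 with the replicate block in 12 and 17 libraries. For SRF-PDGFRB against SRF, the block with 2 groups alone gave -0.39 (Chrna1), -1.38 (Chrnd) and -0.75 (Musk), and the block in 17 libraries gave 0.25 (Chrnb1) and 0.055 (Dok7). With single libraries left out, log2 fold changes of SRF-PDGFRB ranged against pMSCV from -4.19 to 0.52 (Chrna1), -5.07 to 0.76 (Chrng), -3.96 to 0.56 (Musk), -1.59 to 0.10 (Rapsn), -0.84 to 0.94 (Lrp4) and -0.22 to 0.17 (Agrn), and against SRF from -3.22 to 1.48 (Chrna1), -2.61 to 0.70 (Chrnb1), -3.74 to 1.08 (Chrnd), -2.73 to 3.10 (Chrng), -3.44 to 1.08 (Musk), -1.17 to 0.52 (Rapsn), -4.71 to 0.26 (Dok7) and -0.047 to 1.74 (Lrp4). Against pMSCV, Lrp4 ranged from -0.083 to 0.80 (SRF-FOXO1), -0.54 to 0.080 (SRF-ICA1L) and -0.63 to 0.054 (SRF-RELA), and Agrn from -0.30 to 0.095 (SRF-FOXO1) and -0.64 to 0.050 (SRF-RELA). Against SRF, ranges were -0.73 to 0.23 (Chrna1), -0.22 to 0.55 (Chrng) and -0.044 to 0.32 (Agrn) in SRF-ICA1L, and -1.90 to 0.44 (Chrng) and -0.21 to 0.41 (Agrn) in SRF-RELA. The cause was not tested.

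The planned balance of Chrng and Chrne was not run, as Chrne was not analysed here. Dok7 and Chrng rest on few counts in the lowest libraries (4 for Dok7 in SRF-PDGFRB replicate 1), and the precision of all other members is set by the spread between libraries.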

Other observations

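Peg3 and Zim1 ranked first and second in r to the subunit mean over the 17 libraries, and Usp29 ranked second to Chrnd, after Pdgfd. These 3 genes belong to 1 imprinted domain and were picked from the top ranks after the values were seen. Peg3 was at 622, 324 and 337 CPM in pMSCV and 211, 190 and 208 CPM in SRF. It was at 77.2, 26.5 and 23.3 CPM in SRF-FOXO1 and at 17.7 and 404 CPM in SRF-PDGFRB. In Zim1 the pMSCV libraries had 81.7, 64.1 and 29.3 CPM and the SRF-FOXO1 libraries 8.94, 1.83 and 2.14 CPM. Usp29 was at 10.6, 4.72 and 5.84 CPM in pMSCV and 1.09, 0.234 and 0.223 CPM in SRF-FOXO1. These values were not tested.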
